A study of Mus musculus with 27 samples.

Results

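Genes of the endothelial lineage, Pecam1, Cdh5, Kdr, Flt1, Tie1, Tek, Emcn, Vwf and Plvap, were followed in isolated cardiac fibroblasts and in whole hearts of mice of 5 ages. They were taken by symbol from the deposited count tables, in which all 9 of the 9 symbols were found among 22855 genes, and all 9 passed the filter on low counts in both tissues. In whole heart they are read as genes of the vessels. In the fibroblast samples they are genes best known from another cell type than the one sorted for. Which cells of those samples made their transcripts was not tested, and Tek was higher there than in whole heart.

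Endothelial cells line every blood vessel and are joined to each other by adhesion molecules such as those encoded by Pecam1 and Cdh5. Their growth is steered by vascular endothelial growth factor (VEGF), which is read by the receptors Kdr and Flt1, and their stability by the angiopoietins, which are read by Tek with its partner Tie1. Emcn, Vwf and Plvap are not spread evenly over the vascular tree, since capillaries, veins, larger vessels and the endocardium differ in how much of each they make.

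The study asked how gene expression in the heart and in its fibroblasts changes from birth to old age. The animals were C57BL/6 mice, with no other allele and no treatment in the labels: newborns at postnatal day 1, young mice of 4 weeks, adults of 14 weeks and of 1 year, and old mice of 1.5 years. Fibroblasts were sorted from dissociated hearts by flow cytometry for PDGFRα, and the labels list 3 samples at postnatal day 1 and at 4 weeks and 2 at each later age. Whole hearts were sampled 3 times at every age. For the isolation of cells the study used ventricles without atria and valves. Whether the sequenced hearts were trimmed in the same way is not stated. PDGFRα is a surface receptor of most cardiac fibroblasts, so the sort defines the cells by this protein alone, and RNA of whole heart is a mixture of all its cells. By the study's methods the hearts of an age were from separate animals and the sets of fibroblasts came from different hearts, while the labels do not tie samples to animals. The study also states that the fibroblasts were isolated from the sequenced hearts, so samples of both tissues may share animals. The comparisons of the tissues treated all samples as independent.

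Total counts ranged from 54615898 to 76758831 in the 12 fibroblast samples and from 46091271 to 67984404 in the 15 hearts, and the lowest count of any of the 9 genes in a sample was 263, for Plvap. The sorted samples carried their label, with 10 fibroblast markers summing to between 14.97 and 21.3 times the mean of whole hearts of the same age. Sex is not given in the labels, and Xist, which is made from the inactive X chromosome, was at most 0.490 CPM (counts per 1000000 counts of the library) at 14 weeks and 1 year and at least 6.55 at the other ages, whereas the Y-linked Ddx3y was at most 0.392 at 1.5 years and at least 1.73 elsewhere. Sex-linked expression therefore differed along with age between 14 and 4 weeks, and between 1.5 years and 14 weeks or postnatal day 1. From postnatal day 1 to 4 weeks Xist was lower in whole heart (183 to 470 CPM, then 6.55 to 148 CPM). In fibroblasts it was higher at that step (147 to 289 CPM, then 383 to 600 CPM). In all these comparisons contributions of age and sex cannot be told apart. Every fibroblast sample of postnatal day 1 held both Xist (at least 147 CPM) and Ddx3y (at least 33.2 CPM). The same held at 4 weeks (at least 383 and 25.1 CPM). Neonatal hearts had 413, 183 and 470 CPM of Xist and 6.41, 39.2 and 22.9 CPM of Ddx3y in replicates 1 to 3. Hearts of 4 weeks had 72.7, 6.55 and 148 CPM of Xist and 31.8, 6.49 and 1.73 CPM of Ddx3y. Whether such samples pooled animals of both sexes was not tested. Levels are given as CPM scaled by the TMM method within each tissue. Where groups are said not to overlap, this describes the gene named, and the share over all genes was not computed. A gene was called at a Benjamini-Hochberg adjusted p under 0.05 in edgeR's quasi-likelihood F test over all genes, fold changes are on the log2 scale, and the error of a fold change is its standard error (SE).

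The positions below are those of GENCODE M21 on GRCm38 (mm10), the build that the submitters name. The adhesion genes are Pecam1 on chromosome 11 (106654217 to 106750628) and Cdh5 on chromosome 8 (104101625 to 104144511). The VEGF receptor genes lie on chromosome 5, Kdr from 75932827 to 75978458 and Flt1 from 147561604 to 147726011, and the angiopoietin receptor genes on chromosome 4, Tie1 from 118471191 to 118490061 and Tek from 94739289 to 94874976. Emcn spans 137341067 to 137432185 on chromosome 3, Vwf 125546774 to 125686679 on chromosome 6, and Plvap 71497765 to 71511752 on chromosome 8. Reads were counted over exons of these genes, whose union is between 1987 bases long for Plvap and 16064 for Vwf. Cdh5 overlaps the antisense gene Gm29682 (104088916 to 104105873), which is not among the genes counted. The span of Plvap overlaps that of Gtpbp3 on the opposite strand, and overlap of exons was not checked for either pair. The strand setting of the counting is not given in the sources used here, so reads of an overlap cannot be assigned to either gene. Gtpbp3 averaged between 15.5 and 18.9 CPM in whole heart over the ages, against 15.8 to 59.9 for Plvap. In fibroblasts Gtpbp3 averaged between 9.22 and 21.3 CPM and Plvap between 8.79 and 20.2 CPM, and both means were highest at postnatal day 1 (21.3 and 20.2 CPM), so the Plvap values of fibroblasts carry this limit in particular, also in the comparison of the tissues.

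Promoter sequence from RefSeq (GRCm38.p6) was at hand for 5 of the 9 genes and is shown because Kdr, Flt1, Tie1 and Emcn went up and down together between single fibroblast samples while Tek did not, as described further on. The 250 bases before the start annotated by RefSeq are printed 5′ to 3′ on the strand of the gene. This start can differ from that of GENCODE. For Tie1, which reaches to 118490061 in GENCODE, most of the window and its match lie within the GENCODE gene. Capitals mark CAGGAA or CCGGAA in either orientation, letters around the GGAA core that ETS transcription factors bind, a family with known members in endothelial cells.
Kdr, chr5:75978456-75978705, minus strand: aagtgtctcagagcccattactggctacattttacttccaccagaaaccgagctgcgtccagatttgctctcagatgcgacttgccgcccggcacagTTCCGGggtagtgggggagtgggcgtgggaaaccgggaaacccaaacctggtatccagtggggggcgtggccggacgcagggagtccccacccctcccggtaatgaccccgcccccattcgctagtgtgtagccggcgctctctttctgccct
Flt1, chr5:147726012-147726261, minus strand: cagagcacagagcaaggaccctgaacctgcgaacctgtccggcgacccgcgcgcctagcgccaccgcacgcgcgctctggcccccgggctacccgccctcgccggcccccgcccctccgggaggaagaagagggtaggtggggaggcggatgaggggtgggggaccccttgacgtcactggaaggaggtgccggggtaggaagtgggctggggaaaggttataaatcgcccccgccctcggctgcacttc
Tie1, chr4:118489850-118490099, minus strand: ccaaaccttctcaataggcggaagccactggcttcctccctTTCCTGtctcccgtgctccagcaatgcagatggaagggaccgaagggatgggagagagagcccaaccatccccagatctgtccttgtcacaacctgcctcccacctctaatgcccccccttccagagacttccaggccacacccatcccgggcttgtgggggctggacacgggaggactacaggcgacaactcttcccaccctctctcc
Tek, chr4:94739039-94739288, plus strand: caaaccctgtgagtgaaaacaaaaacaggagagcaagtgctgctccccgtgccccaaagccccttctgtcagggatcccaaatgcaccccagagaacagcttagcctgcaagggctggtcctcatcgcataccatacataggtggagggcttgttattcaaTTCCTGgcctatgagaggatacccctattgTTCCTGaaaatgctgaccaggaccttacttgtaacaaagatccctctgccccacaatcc
Emcn, chr3:137340828-137341077, plus strand: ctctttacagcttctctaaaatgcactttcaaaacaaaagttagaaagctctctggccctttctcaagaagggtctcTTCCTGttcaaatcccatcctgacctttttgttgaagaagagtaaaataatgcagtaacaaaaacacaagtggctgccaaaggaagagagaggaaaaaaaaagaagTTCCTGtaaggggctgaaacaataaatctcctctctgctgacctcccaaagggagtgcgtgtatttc
Tek and Emcn held 2 matches each, Kdr and Tie1 held 1 each, and Flt1 held 0. Of 32817 windows of the same length, 35.0% held either motif (25.7% CAGGAA and 12.02% CCGGAA) and 8.42% held at least 2, so the matches are a description of these letters and tell nothing of binding. Tek, whose level behaved differently from that of the other receptors, was not set apart by them from Emcn.

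In whole heart the adhesion gene Cdh5 had the highest level per kilobase of exon, with a mean of 42.0 CPM per kb over the 15 samples and a range of 19.5 to 83.3. Pecam1 followed at 25.9 (17.1 to 38.1), Tie1 at 21.5 (14.5 to 33.2), Plvap at 17.3 (3.65 to 35.5) and Kdr at 12.8 (5.90 to 25.5). Tek was sixth at 11.2 CPM per kb (7.89 to 17.0), before Emcn at 8.58, Flt1 at 6.57 and Vwf at 6.39. Each gene's range overlapped that of its neighbours in this order. In fibroblasts Tek stood at the top, with a mean of 49.6 CPM per kb (32.0 to 78.2) over 12 samples, beside Cdh5 at 48.5 (8.14 to 124), Pecam1 at 19.9, Tie1 at 17.9, Kdr at 15.3, Flt1 at 8.65, Plvap at 7.35, Emcn at 5.19 and Vwf at 2.29. The ranges of neighbouring genes overlapped here too, and that of Tek was the narrowest relative to its level, the highest sample being 2.45 times the lowest, against 6.30 to 25.9 times for the other 8 genes.

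**Figure D1:**
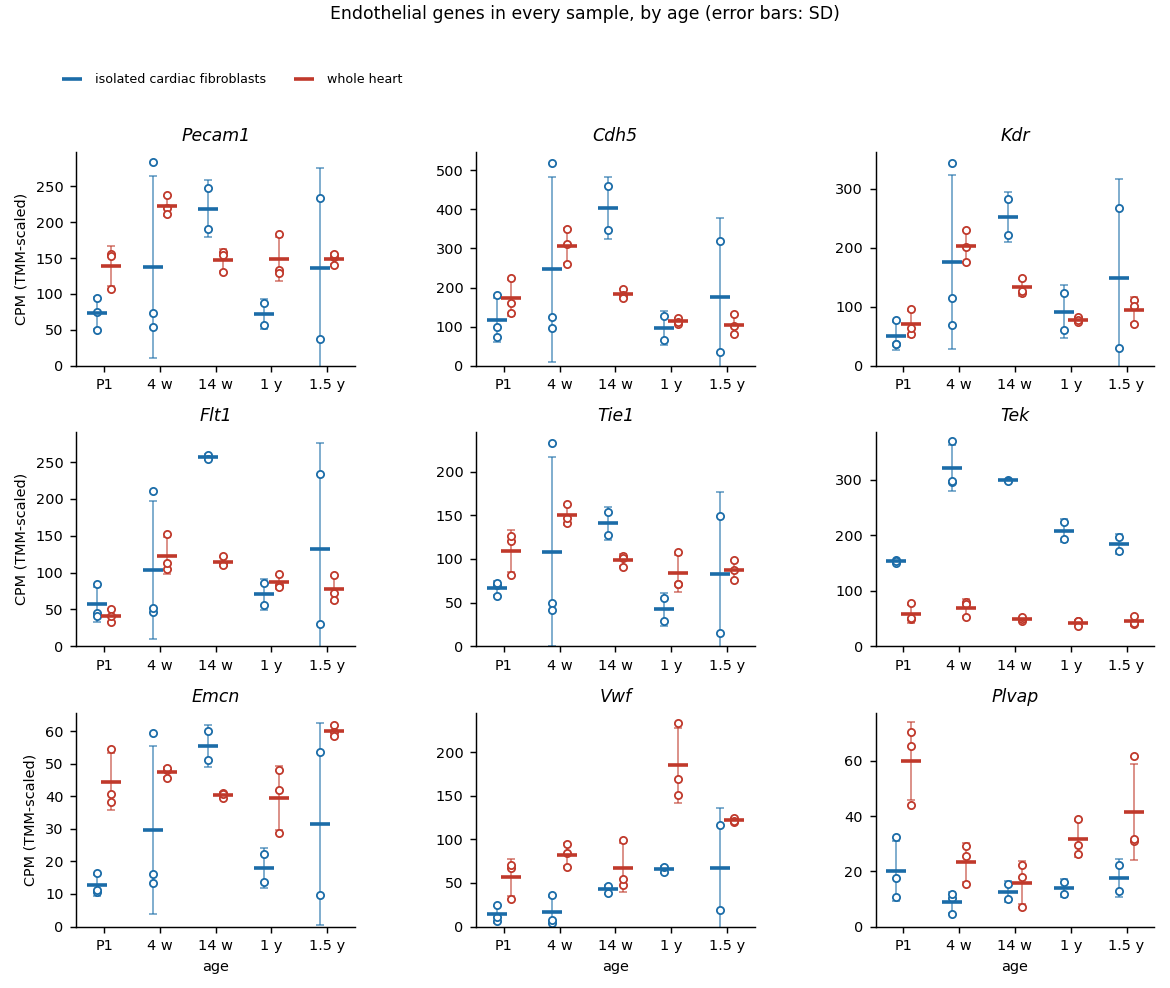
Level of each of the 9 genes in CPM, TMM-scaled within each tissue, by age; circles are samples, thick dashes are group means and thin bars are SD, for isolated cardiac fibroblasts in blue (n = 2 or 3) and whole heart in red (n = 3). In fibroblasts, most genes have 1 sample far above the others at 4 weeks and samples far apart at 1.5 years, while Tek lies above whole heart at every age with samples close together.

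Over the 5 ages, 7 of the 9 genes differed in whole heart, where 34.3% of all genes tested were called. The exceptions were Emcn (adjusted p = 0.0644) and Tek (adjusted p = 0.0559). All 9 were at an unadjusted p under 0.05, and DESeq2 called 9. In fibroblasts only Tek differed (adjusted p = 0.000194), against 19.9% of all genes, with 2 genes at an unadjusted p under 0.05 and 2 called by DESeq2. The share of all genes that DESeq2 called was not computed for either tissue.

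From postnatal day 1 to 4 weeks both VEGF receptors and both adhesion genes rose in whole heart. Kdr, the main signalling receptor for VEGF-A, was at 53.2, 95.7 and 64.2 CPM in the 3 neonatal hearts and at 230, 201 and 176 CPM in the 3 hearts of 4 weeks. Flt1, which binds VEGF tightly and signals weakly, was at 33.0, 50.5 and 40.5 CPM at postnatal day 1 and at 152, 105 and 113 CPM at 4 weeks. Every 4-week heart was above every neonatal heart for both genes. Kdr rose 2.85-fold (log2 1.51, SE 0.21, adjusted p = 6.9e-05) and Flt1 rose 2.98-fold (log2 1.57, SE 0.20, adjusted p = 2.51e-05).

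Cdh5, the cadherin of endothelial junctions, was at 161, 225 and 134 CPM in neonatal hearts and at 350, 312 and 259 CPM at 4 weeks. Pecam1, an adhesion molecule of the same junctions, was at 156, 153 and 106 CPM and then at 237, 219 and 211 CPM. The groups did not overlap for either gene. The rise was 1.77-fold for Cdh5 (log2 0.82, SE 0.20, adjusted p = 0.00723) and 1.61-fold for Pecam1 (log2 0.69, SE 0.17, adjusted p = 0.0085).

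Plvap, which builds the diaphragms of caveolae and fenestrae, went the other way. It was at 65.3, 70.5 and 44.0 CPM in neonatal hearts and at 15.4, 29.1 and 25.4 CPM at 4 weeks, again with no overlap, a 2.57-fold fall (log2 -1.36, SE 0.37, adjusted p = 0.0156). Without neonatal heart replicate 1 or 2, or without 4-week replicate 1, Plvap was no longer called (adjusted p = 0.0524, 0.065 and 0.0687). In all, 4 of the 9 genes rose and 1 fell, against 12.1% and 6.10% of all genes tested. Their median log2 fold change was 0.55, beside -0.09 for all genes.

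The angiopoietin receptors moved less. Tie1 gave 0.46 (SE 0.19, adjusted p = 0.107) on the log2 scale and Tek 0.25 (SE 0.21, adjusted p = 0.471), while Emcn, a sialomucin of capillary and venous endothelium, gave 0.09 and Vwf, the glycoprotein that tethers platelets, gave 0.55. How libraries were scaled mattered at this step. With library size alone, all genes together had a median of -0.60, Kdr and Flt1 were still called, Cdh5 (0.30, adjusted p = 0.325) and Pecam1 (0.17, adjusted p = 0.559) were not, and Tie1 (-0.06), Tek (-0.27) and Emcn (-0.42) changed sign. The proportions between the genes do not depend on scaling. The ratio of Flt1 to Cdh5 counts lay between 0.205 and 0.302 in neonatal hearts, between 0.337 and 0.435 at 4 weeks and between 0.566 and 0.706 at 14 weeks, with no overlap between these ages. That of Kdr to Cdh5 lay between 0.330 and 0.477 at postnatal day 1 and between 0.647 and 0.679 at 4 weeks.

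Other cell types also moved at this step, which in bulk tissue is part of each value: fewer cells of a type and less RNA per cell cannot be told apart. Summed markers of cardiomyocytes lay between 42681 and 50479 CPM in neonatal hearts and between 81921 and 101033 CPM at 4 weeks, those of pericytes between 509 and 603 and then between 901 and 1400 CPM, those of macrophages and leukocytes between 77.0 and 94.7 and then between 464 and 585 CPM, and those of proliferation between 258 and 344 and then between 43.6 and 69.5 CPM. Genes of the mitochondrial genome took 10.8% to 13.7% of the counts in neonatal hearts and 14.9% to 26.7% at 4 weeks. Their part in the changes of the endothelial genes was not tested. The 9 genes together summed to between 591 and 910 CPM at postnatal day 1, 1138 and 1345 at 4 weeks, 801 and 892 at 14 weeks, 740 and 908 at 1 year, and 725 and 814 at 1.5 years. Only the 4-week hearts lay apart from all others in this sum, and without TMM scaling they did not, since neonatal hearts then lay between 832 and 1341 and 4-week hearts between 1199 and 1262 CPM.

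**Figure D2:**
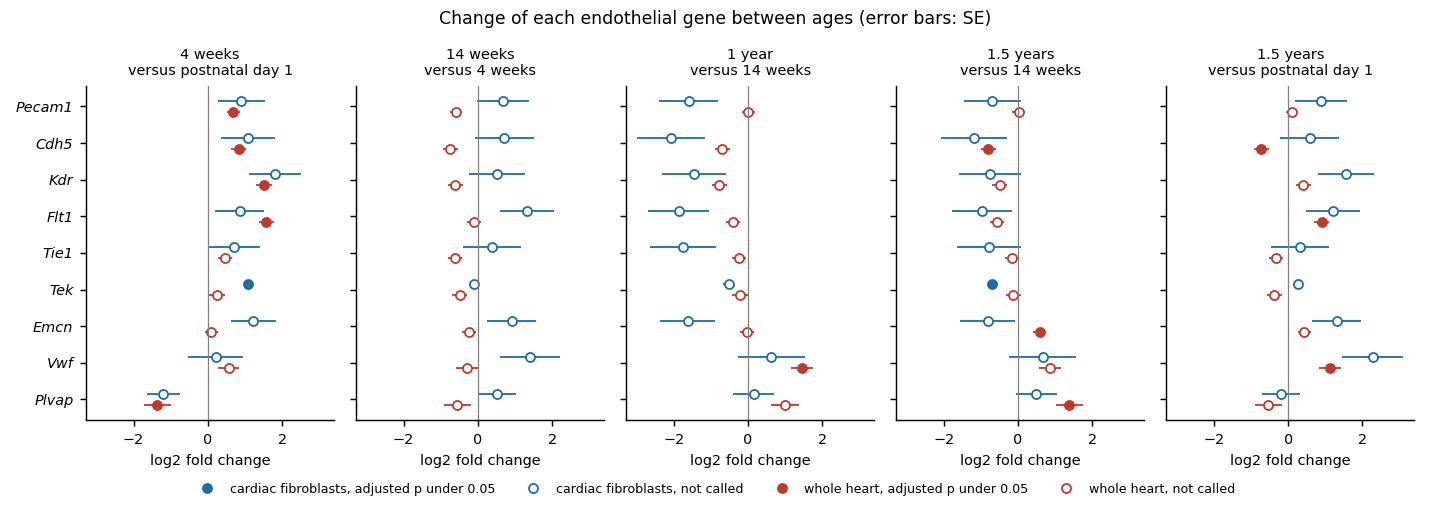
Log2 fold change of each gene (x axis) in 5 comparisons of ages, in fibroblasts (blue) and whole heart (red); bars are SE and filled circles passed an adjusted p under 0.05. In whole heart 5 genes are called from postnatal day 1 to 4 weeks, and in fibroblasts Tek alone is called, with SEs between 0.12 and 0.15, while the other fibroblast values have wide bars.

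From 4 to 14 weeks all 9 estimates in whole heart were negative, with a median log2 fold change of -0.55 beside 0 for all genes. In edgeR's test 0 of the 9 passed, in either direction, against 0.756% of all genes that rose and 0.850% that fell. At an unadjusted p under 0.05 there were 5, and DESeq2 called 3 lower, Cdh5 (-0.74, adjusted p = 0.00866), Pecam1 (-0.59, adjusted p = 0.0204) and Tie1 (-0.61, adjusted p = 0.0469). The share of all genes called by DESeq2 was not computed, so its count has no background. Cdh5 was at 350, 312 and 259 CPM at 4 weeks and at 197, 181 and 173 CPM at 14 weeks, without overlap, and its adjusted p in edgeR was 0.0772. A fit of these ages alone called Cdh5 (adjusted p = 0.0444), so the call for this gene rests on the fit.

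Between 14 weeks and 1 year Vwf was the only member called in whole heart. It was at 47.9, 55.0 and 99.7 CPM at 14 weeks and at 169, 151 and 234 CPM at 1 year, a 2.73-fold rise with no overlap (log2 1.45, SE 0.30, adjusted p = 0.031). The rise was called in 1 gene of 9, against 0.389% of all genes higher and 0.583% lower. The call was lost without 14-week replicate 1 or 2 or without any single 1-year heart (adjusted p from 0.069 to 0.146), with log2 values of 1.25 to 1.58. Kdr (-0.77, SE 0.21, adjusted p = 0.0838) and Cdh5 (-0.69, SE 0.20, adjusted p = 0.101) did not pass in edgeR, and were called by DESeq2 (adjusted p = 0.00986 and 0.0174).

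At 1.5 years Plvap and Emcn were higher and Cdh5 lower than at 14 weeks. Plvap was at 18.1, 7.25 and 22.2 CPM at 14 weeks and at 30.8, 31.8 and 61.5 CPM at 1.5 years, a 2.61-fold rise (log2 1.38, SE 0.37, adjusted p = 0.0215). Emcn was at 39.3, 40.9 and 40.7 CPM and then at 62.0, 59.8 and 58.6 CPM, a 1.49-fold rise (log2 0.58, SE 0.18, adjusted p = 0.0469). Cdh5 was at 101, 134 and 81.9 CPM at 1.5 years, all below the 14-week hearts, a 1.74-fold fall (log2 -0.80, SE 0.20, adjusted p = 0.0143). The samples of these ages did not overlap for these 3 genes, which are named because they were called. Of the 9 genes, 2 rose and 1 fell, against 4.91% and 7.86% of all genes. Vwf gave 0.85 (SE 0.29, adjusted p = 0.0645) and Flt1 gave -0.57 (SE 0.19, adjusted p = 0.0639). DESeq2 called Vwf higher (0.93, adjusted p = 0.0129). So did edgeR with median-of-ratios scaling (adjusted p = 0.0486), no filter on low counts (adjusted p = 0.0483) or at least 10 counts in every sample (adjusted p = 0.0164).

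These 3 calls were close to the threshold. Emcn was lost on leaving out any single heart of either age (adjusted p from 0.0742 to 0.137), Cdh5 without 14-week replicate 1 or 1.5-year replicate 3 (adjusted p = 0.0585 and 0.0698), and Plvap without 14-week replicate 1 or 2 or 1.5-year replicate 3 (adjusted p = 0.0538, 0.0786 and 0.121). Cdh5 was also lost with library size alone (-0.63, adjusted p = 0.0677) and Plvap when only these ages were fitted (1.44, adjusted p = 0.0600). Across 12956 genes the fold change of this comparison fell with exon length (Spearman's rho -0.51, a description across genes, which are not independent replicates). With an offset for length, Cdh5 (-0.66, adjusted p = 0.0517) and Plvap (1.22, adjusted p = 0.0577) were not called and Vwf was (1.75, adjusted p = 0.00967). Between the same ages summed markers of macrophages and leukocytes went from between 350 and 398 CPM to between 568 and 750 CPM, those of red cells from between 296 and 377 to between 689 and 1645 CPM, and those of pericytes from between 1009 and 1033 to between 644 and 875 CPM, and their part was not tested.

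Set against the neonatal heart, the heart of 1.5 years had higher Vwf (log2 1.12, SE 0.29, adjusted p = 0.00781) and Flt1 (0.90, SE 0.20, adjusted p = 0.00205) and lower Cdh5 (-0.72, SE 0.20, adjusted p = 0.0107). Vwf was at 125, 120 and 122 CPM at 1.5 years, above the 66.8, 70.6 and 31.5 CPM of neonatal hearts. Flt1 was at 96.8, 72.7 and 62.3 CPM at 1.5 years, also without overlap with postnatal day 1. Of 9 genes, 2 rose and 1 fell, against 15.6% and 16.3% of all genes. With library size alone the median of all genes was -0.75, and Flt1 (0.30) and Vwf (0.51) were no longer called, while Tie1 (-0.92), Tek (-0.98) and Plvap (-1.15) were. Cdh5 was not called without neonatal replicate 2 (-0.44, adjusted p = 0.117) or 1.5-year replicate 3 (-0.57, adjusted p = 0.0519), or when only these ages were fitted (-0.70, adjusted p = 0.0687). Fold changes fell with exon length here too (rho -0.39 across 12956 genes). With the length offset 5 genes were called, all higher, since Pecam1 (0.50, adjusted p = 0.0400), Kdr (1.04, adjusted p = 0.00043) and Emcn (0.76, adjusted p = 0.0106) were added to Flt1 and Vwf and Cdh5 was lost (-0.52, adjusted p = 0.0548).

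In isolated fibroblasts the endothelial genes fell into separate patterns. Of the 9 genes, Pecam1, Cdh5, Kdr, Flt1, Tie1 and Emcn were high or low together in single samples. Cdh5 was at 181, 99.0 and 73.7 CPM at postnatal day 1, at 125, 95.8 and 519 CPM at 4 weeks, at 460 and 347 CPM at 14 weeks, at 65.3 and 128 CPM at 1 year, and at 34.2 and 319 CPM at 1.5 years. Kdr followed the same samples, with 77.5, 37.2 and 36.6 CPM at postnatal day 1, then 114, 68.4 and 344, then 282 and 222, then 60.1 and 124, and then 30.6 and 267 CPM. The high samples were replicate 3 of 4 weeks, both replicates of 14 weeks and replicate 5 of 1.5 years, and the lowest was replicate 4 of 1.5 years.

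Relative to the mean of the other 4-week samples, replicate 3 held between 3.77 times (Kdr) and 5.11 times (Tie1) as much of these 6 genes, with Vwf at 5.78 times, Tek at 1.24 times and Plvap at 0.402 times. At 1.5 years replicate 5 held between 5.61 times (Emcn) and 9.60 times (Tie1) as much as replicate 4, with Vwf at 6.24, Plvap at 1.75 and Tek at 1.14 times. Marker lists of other cell types were compared in the same samples. Summed cardiomyocyte markers were 2.71 times as high in replicate 3 of 4 weeks and 5.51 times as high in replicate 5 of 1.5 years, red cell markers 4.63 and 2.76 times, lymphocyte markers 1.79 and 11.9 times, smooth muscle markers 1.12 and 1.57 times, macrophage and leukocyte markers 1.06 and 0.959 times, pericyte markers 1.08 and 0.936 times, and fibroblast markers 0.846 and 0.920 times. Lymphocyte markers summed to 0.715 and 8.51 CPM in the 1.5-year samples, and 0 of 8 had counts in all 12 fibroblast samples. The part of these lists in the differences was not tested.

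As a description over the 12 samples, which share ages and library scaling, Pearson's r between the log2 level of a gene and the mean of the other 8 was 0.98 for Flt1 and Emcn, 0.97 for Pecam1, 0.94 for Kdr, 0.93 for Cdh5 and 0.85 for Tie1. It was 0.56 for Vwf, 0.48 for Tek and -0.17 for Plvap. Over the 15 hearts the same value was 0.90 for Pecam1, 0.65 for Tie1, 0.59 for Kdr, 0.50 for Tek, 0.47 for Cdh5, 0.31 for Flt1, 0.03 for Emcn, -0.13 for Vwf and -0.45 for Plvap.

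Tek, the angiopoietin receptor, did not share this pattern in fibroblasts. It was at 155, 151 and 153 CPM at postnatal day 1, at 295, 298 and 369 CPM at 4 weeks, at 299.5 and 298 CPM at 14 weeks, at 223 and 194 CPM at 1 year, and at 172 and 196 CPM at 1.5 years. Samples of an age lay close together, also those of 1.5 years that differed 9.31-fold in Cdh5. Tek rose 2.10-fold from postnatal day 1 to 4 weeks (log2 1.07, SE 0.12, adjusted p = 6.36e-05). It was the only one of the 9 genes called at this step, where 9.28% of all genes rose and 6.20% fell. The rise was called in each fit that left out 1 sample.

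For the other genes the same step had large errors, as in Kdr (1.80, SE 0.70, adjusted p = 0.111), Emcn (1.22, SE 0.61, adjusted p = 0.202) and Cdh5 (1.06, SE 0.73, adjusted p = 0.351). Plvap gave -1.20 (SE 0.45, adjusted p = 0.1), with 32.2, 10.9 and 17.4 CPM at postnatal day 1 and 10.3, 11.6 and 4.41 CPM at 4 weeks, and was called by DESeq2 (adjusted p = 0.0475) and without neonatal replicate 2 (-1.50, adjusted p = 0.0453). Without replicate 3 of 4 weeks, 4 genes differed over the 5 ages in place of 1. The share of all genes called in that fit was not computed, so this count has no background.

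From 4 to 14 weeks 0 of the 9 genes were called in fibroblasts by edgeR or DESeq2, with 0 at an unadjusted p under 0.05, against 1.79% of all genes higher and 2.08% lower. Tek gave -0.10 (SE 0.14). From 14 weeks to 1 year edgeR called 0 of 9, against 1.31% higher and 0.474% lower, with 4 at an unadjusted p under 0.05. The estimates were large, with Cdh5 at -2.06 (SE 0.92, adjusted p = 0.379), Flt1 at -1.87 (SE 0.83) and Tie1 at -1.74 (SE 0.89), and both 14-week samples lay above both 1-year samples in each. When only these ages were fitted, the spread at 4 weeks and 1.5 years did not enter, and 8 genes were called. Pecam1, Cdh5, Kdr, Flt1, Tie1, Tek and Emcn were lower and Vwf was higher. The share of all genes called in that fit was not computed, so this count has no background. DESeq2 called Tek (-0.53, adjusted p = 0.011). The result at this step thus depended on the fit.

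At 1.5 years Tek was 1.62-fold lower than at 14 weeks (log2 -0.70, SE 0.15, adjusted p = 0.0284) and the samples did not overlap. It was the only gene called, against 1.91% of all genes higher and 0.816% lower, and no fit that left out a sample of either age called it (adjusted p from 0.0773 to 0.216). Compared with postnatal day 1, Tek at 1.5 years gave 0.27 (SE 0.13, adjusted p = 0.211). In that comparison edgeR and DESeq2 called 0 of the 9 genes, with 1 at an unadjusted p under 0.05, against 9.86% of all genes higher and 6.46% lower. Vwf came closest, at 2.27 (SE 0.82, adjusted p = 0.0825), with 24.5, 6.91 and 10.4 CPM at postnatal day 1 and 18.6 and 116 CPM at 1.5 years. Without replicate 4 of 1.5 years, Vwf (3.06, adjusted p = 0.0236), Kdr (2.40, adjusted p = 0.027) and Emcn (2.07, adjusted p = 0.0424) were called.

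The tissues were then set against each other on a scaling common to all 27 samples. Tek was 3.38-fold higher in fibroblasts than in whole heart as a mean over the ages (log2 1.76, SE 0.09, adjusted p = 1.09e-14). With TMM scaling within each tissue, Tek ran from 37.2 to 80.1 CPM over the 15 whole hearts and from 151 to 369 CPM over the 12 fibroblast samples, without overlap. In each of the 12 fibroblast samples it was above the mean of whole hearts of the same age, at 203% to 478% of it. Tek is best known from endothelial cells, and these samples held more of it relative to other genes than whole heart did.

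Vwf, Plvap, Emcn, Pecam1 and Tie1 were lower in fibroblasts, Vwf by 3.55-fold (log2 -1.83, SE 0.30, adjusted p = 1e-05), Plvap 2.81-fold (-1.49, SE 0.22, adjusted p = 2.24e-06), Emcn 2.25-fold (-1.17, SE 0.22, adjusted p = 7.74e-05), Pecam1 1.74-fold (-0.80, SE 0.23, adjusted p = 0.00494) and Tie1 1.63-fold (-0.70, SE 0.26, adjusted p = 0.0236). With library size alone Pecam1 (-0.46, adjusted p = 0.106) and Tie1 (-0.37, adjusted p = 0.267) were not called, and Tie1 was also lost without any of 14 single samples. Cdh5 (-0.20, SE 0.26), Kdr (-0.13, SE 0.25) and Flt1 (0.02, SE 0.24) were not called. So 1 gene was higher and 5 were lower, against 27.7% and 29.1% of all genes. Without replicate 5 of 1.5 years, Cdh5 (-0.66, adjusted p = 0.0145) and Kdr (-0.58, adjusted p = 0.0227) were called lower as well.

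**Figure D3:**
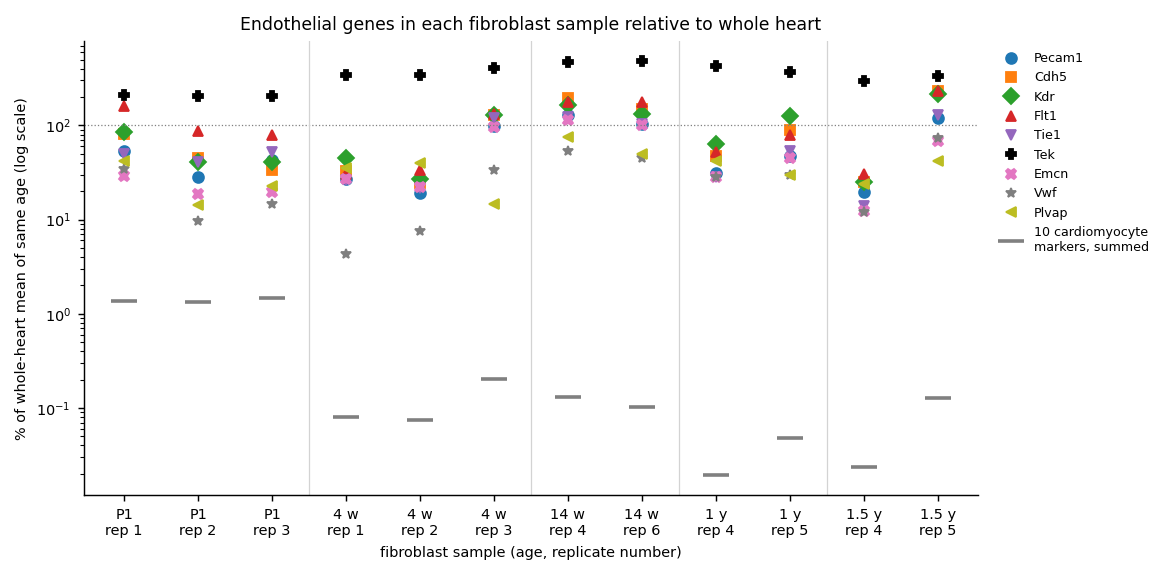
CPM of each gene in each of the 12 fibroblast samples (x axis, age and replicate number) as a percentage of the mean of the 3 whole hearts of the same age, on a log axis and on a scaling common to both tissues; grey dashes are the sum of 10 cardiomyocyte markers, and the dotted line marks equality. Tek lies between 203% and 478% in all samples, Pecam1, Cdh5, Kdr, Flt1, Tie1 and Emcn shift together between samples, and the cardiomyocyte markers lie at or under 1.46%.

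The level of these genes relative to whole heart varied between single samples. Cdh5 in a fibroblast sample was between 24.6% and 231% of the mean of whole hearts of the same age, with a median of 64.5% and 4 of 12 samples above 100%. Kdr ranged from 25.3% to 216%, Flt1 from 30.1% to 232%, Tie1 from 13.8% to 130%, Pecam1 from 19.4% to 129% and Emcn from 12.4% to 115%. Vwf, at 4.35% to 72.8%, and Plvap, at 14.3% to 74.7%, stayed below whole heart in every sample. The 10 cardiomyocyte markers, 8 of which had counts in all fibroblast samples and none of which was at 0 in all of them, summed to at most 1.46% of whole heart. In the samples above 100%, transcripts of Cdh5 were thus at least as abundant among sorted cells as in the intact tissue. Whether these transcripts were made by the sorted cells or by endothelial cells among them was not tested.

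**Figure D4:**
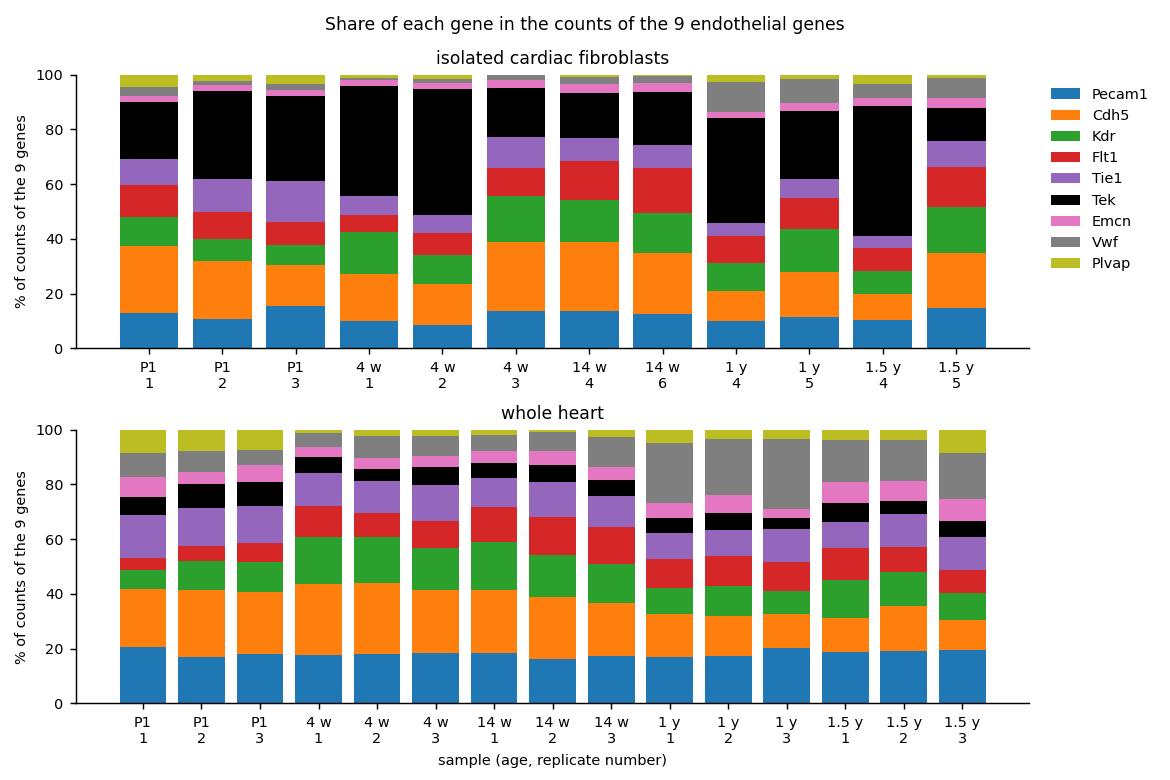
Share of each gene in the summed counts of the 9 genes, in percent, for every fibroblast sample (top) and whole heart (bottom), ordered by age and labelled by replicate number. Tek (black) takes 12.3% to 47.6% of the counts in fibroblast samples and 4.09% to 8.51% in whole hearts.

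The make-up of the summed counts of the 9 genes, which does not depend on library scaling, also differed between the tissues. Tek took between 12.3% and 47.6% of the counts of the 9 genes in fibroblast samples and between 4.09% and 8.51% in whole hearts, with no overlap. The ratio of Tek to Tie1 counts was between 1.32 and 11.1 in fibroblasts and between 0.344 and 0.719 in whole hearts. It was highest, at 11.1, in replicate 4 of 1.5 years, where Cdh5 was lowest. Plvap took 0.214% to 4.38% in fibroblasts and 0.906% to 8.61% in whole hearts, and Vwf 0.611% to 10.8% and 5.10% to 25.7%, so that for these genes the tissues overlapped.

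Whether a gene changed differently with age in fibroblasts and in whole heart was tested as an interaction. The scaling common to both tissues left a median over all genes of 0.17 for the first interaction and 0.32 for the second. For the change from postnatal day 1 to 4 weeks 0 of the 9 genes were called by edgeR and by DESeq2, against 3.18% of all genes higher and 3.96% lower, with 1 at an unadjusted p under 0.05. That gene was Tek, with a difference of 0.82 (SE 0.26, adjusted p = 0.0557), and it was called without neonatal heart replicate 1 (0.93, adjusted p = 0.037) or 3 (0.92, adjusted p = 0.0455). For the change between postnatal day 1 and 1.5 years edgeR and DESeq2 again called 0, against 7.88% higher and 5.77% lower, with Tek (0.61, SE 0.27, adjusted p = 0.141) the 1 gene at an unadjusted p under 0.05. With library size alone, Tek was called in both (1.26, adjusted p = 0.00369, and 1.03, adjusted p = 0.0121), where the median over all genes was 0.60 and 0.73. A rise of Tek in fibroblasts and no call in whole heart is thus not shown to be a difference between the tissues.

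Further endothelial genes were read from lists that leave the 9 genes out. In whole heart from postnatal day 1 to 4 weeks, 5 of 20 other pan-endothelial genes rose (median 0.30), against 12.1% of all genes that rose and 6.10% that fell at this step, among them Cd34 (0.73, adjusted p = 0.00445), while Eng, a coreceptor for TGF-β, gave 0.21 (adjusted p = 0.434) and Cd93 0.38 (adjusted p = 0.277). Of 11 capillary genes 7 rose and 1 fell (median 0.95). Aqp1, a water channel, rose (2.35, adjusted p = 1.18e-07), and the fatty acid handling genes Cd36 (0.26, adjusted p = 0.451) and Fabp4 (0.10, adjusted p = 0.71) did not pass. Of 14 VEGF and angiopoietin ligands, receptors and coreceptors 6 rose and 1 fell (median 0.85), including the ligands Vegfb (1.05, adjusted p = 0.00019) and Vegfa (0.90, adjusted p = 0.0213) and the coreceptor Nrp1 (0.55, adjusted p = 0.0397).

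At the same step, where 12.1% of all genes rose and 6.10% fell, 5 of 15 endothelial transcription factors rose, among them Klf2 (0.91, adjusted p = 0.00184) and Ets2 (0.61, adjusted p = 0.0219). Arterial genes gave 2 higher and 1 lower of 14, venous genes 1 and 1 of 6, and endocardial genes 1 higher and 3 lower of 9, while 7 lymphatic genes had a median of -0.33. Among the endocardial genes Npr3, a clearance receptor for natriuretic peptides, fell (-1.21, adjusted p = 0.048), and Gata4 (-0.23, adjusted p = 0.369) did not pass.

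From 14 weeks to 1.5 years, 4 of 20 pan-endothelial genes rose and 2 fell in whole heart, and 3 of 11 capillary genes rose, Fabp4 among them (1.09, adjusted p = 0.000555), against 4.91% of all genes that rose and 7.86% that fell. Of the VEGF and angiopoietin list 1 rose and 3 fell of 14. Vegfb rose (0.58, adjusted p = 0.0251), and Vegfa (-0.89, adjusted p = 0.0306) and Nrp1 (-0.71, adjusted p = 0.0156) fell. Of 14 arterial genes 1 rose and 2 fell, Notch4 among the latter (-0.88, adjusted p = 0.0257). Compared with postnatal day 1, 7 of 14 arterial genes were lower at 1.5 years and 1 was higher (median -0.94), and 8 of 11 capillary genes were higher and 1 lower (median 0.69), beside a median of -0.15 for all genes, of which 15.6% were higher and 16.3% lower.

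In fibroblasts, between postnatal day 1 and 4 weeks, 3 of 20 pan-endothelial genes rose (median 1.23), Cd34 (1.66, adjusted p = 4.38e-06) and Ptprb (2.08, adjusted p = 0.00778) among them, and 6 of 15 transcription factors rose, with Klf4 (2.45, adjusted p = 2.23e-06) and Klf2 (1.31, adjusted p = 1.47e-05). Of all genes 9.28% rose and 6.20% fell at this step. Of the VEGF and angiopoietin list 7 rose and 1 fell of 14, including Vegfa (0.95, adjusted p = 0.000209), Nrp1 (0.87, adjusted p = 0.00652) and Nrp2 (1.60, adjusted p = 0.0293). Some genes of these lists were higher in the fibroblast samples than in whole heart. Cd34 was 2.92 higher in fibroblasts than in whole heart on the log2 scale (adjusted p = 1.18e-19), Eng 1.12 (adjusted p = 1.1e-11), Klf2 3.41 (adjusted p = 2.01e-20) and Nrp1 1.16 (adjusted p = 3.79e-11), and of 20 pan-endothelial genes 2 were higher and 12 lower in fibroblasts (median -0.81), against 27.7% and 29.1% of all genes. Of 11 capillary genes 2 were higher and 9 lower, with Cd36 8.01-fold lower (adjusted p = 1.16e-08) and Fabp4 at -1.78 (adjusted p = 6.24e-06).

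Genes most like the 9 were ranked by the Pearson correlation of their log2 CPM with the mean log2 CPM of the 9 over the samples of a tissue. Over the 12 fibroblast samples and 10494 genes the closest were Adgrf5 (r = 0.98), Cav1 (0.98), Palmd (0.97), Cd36 (0.96) and Fabp4 (0.96). Adgrf5 ran from 30.6 to 439 CPM and Cav1 from 48.2 to 362 CPM over these samples. Over the 15 whole hearts and 10289 genes they were Nfkb1, Tmem100, Tinagl1, Sez6l2 and Ltbp4, with r between 0.81 and 0.82.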

How the data were processed

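The authors mapped reads to mm10 with STAR 2.5.3a and deposited raw counts per gene in a table for each tissue; the annotation and the strand column counted are not given in the sources used here. Tissue and age in the labels set the groups. The 9 genes and all lists were chosen with earlier results of these data known. All samples of a tissue were fitted together in edgeR 4.0.16 (R 4.3.3) with age as factor, filterByExpr, TMM scaling and the quasi-likelihood F test, on 18759 genes in fibroblasts and 17995 in whole heart, and both tissues jointly on 20650. Log2 CPM used an added 2. The SE of a fold change was derived from its F statistic. Symbols were matched to GENCODE M21 (21770 of 22855).

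Of 24 replicate pairs, 0 held identical counts. Within a tissue, same-numbered samples of different ages did not vary together: the 18 correlations of their deviations lay between -0.074 and 0.031. These samples differ in age, so the check cannot show whether a fibroblast and a heart sample share an animal. That pairing was not tested. Besides the 9 genes, the text names 5 genes per tissue with a mean of at least 5 CPM and the highest correlation with them, and the 3 of highest mean CPM in a list. Alternatives were DESeq2 1.42.0, median-of-ratios or library-size scaling, other filters, a 2-fold demand, only the groups compared, the replicate block and each replicate left out. The offset for exon length and tests without mitochondrial genes were chosen after seeing the data. On simulated data with 200 genes changed 4-fold between postnatal day 1 and 4 weeks, edgeR recovered 66% in fibroblasts and 73% in whole heart. Tables were handled with pandas 2.3.3 and figures drawn with matplotlib 3.10.9.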

Additional observations from a re-analysis of the deposited data

How the results depend on the processing

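With at most 3 samples a group and 2 in older fibroblasts, counts of called genes shifted easily, although none of the 20 called fold changes changed sign in any alternative. Of 1926 alternative values, 89 changed sign without being called on either side. With library size alone the count was 1 for fibroblasts at 1 year versus 14 weeks (0 with TMM), 3 for whole heart at 4 weeks versus postnatal day 1 (5) and at 14 weeks versus 4 weeks (0), and 1 for each interaction (0). Demanding 10 counts in every sample gave 1 for fibroblasts at 1.5 years versus postnatal day 1 (0), 2 for whole heart at 14 versus 4 weeks (0) and 1 for the interaction at 4 weeks (0). The length offset gave 0 for whole heart at 1 year versus 14 weeks (1) and 5, all higher, at 1.5 years versus postnatal day 1 (3), and turned Flt1 between tissues from 0.02 to -0.69 (adjusted p = 0.0126). DESeq2 gave 2 for fibroblasts over all ages (1) and at 4 weeks versus postnatal day 1 (1), 1 at 1 year versus 14 weeks (0), and 3 for whole heart at 14 versus 4 weeks (0) and at 1 year versus 14 weeks (1). Demanding a 2-fold change gave 0 for fibroblasts at 1.5 years versus 14 weeks (1), and for whole heart 3 at 4 weeks versus postnatal day 1 (5), 1 at 1.5 years versus 14 weeks (3) and 1 at 1.5 years versus postnatal day 1 (3). Fitting only the groups compared gave 8 for fibroblasts at 1 year versus 14 weeks (0), and for whole heart 1 at 14 versus 4 weeks (0) and 3 at 1 year versus 14 weeks (1). The share of all genes called was computed only for the main fits, and the causes were not tested.

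With the replicate number as a block, whole heart at 1 year versus 14 weeks gave 0 in place of 1 (Vwf, adjusted p = 0.0604), and Emcn at 1.5 years versus 14 weeks was lost (adjusted p = 0.0521); of 8 counts with a block no other moved by over 1.5 times. No paired analysis was possible for comparisons that use fibroblasts of 14 weeks or later because these share fewer than 2 numbers with the ages they were compared with.

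On leaving out 1 sample, counts in fibroblasts ranged from 1 to 5 over all ages, 1 to 2 at 4 weeks versus postnatal day 1, 0 to 0 at 1.5 years versus 14 weeks and 0 to 3 at 1.5 years versus postnatal day 1. In whole heart they ranged from 0 to 1 at 1 year versus 14 weeks and 0 to 3 at 1.5 years versus 14 weeks, and for the interaction at 4 weeks from 0 to 1. A lone remaining sample was assumed to vary like the other groups.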
